A study of Mus musculus with 8 samples.

Results

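Retinoic acid synthesis and response genes were followed in mouse kidney tubuloids, epithelial structures grown in Matrigel from fragments of postnatal tubules. The members are 9 genes, found by their symbols among the 24063 genes of the deposited tables: *Aldh1a1*, *Aldh1a2* and *Aldh1a3* for synthesis, *Dhrs3* for the reverse step, *Crabp2* for transport, *Rara*, *Rarb* and *Rarg* as receptors and *Cyp26b1* for clearance. The RNA-Seq compared 4 cultures that received GDNF, the glial cell line-derived neurotrophic factor, at 20 ng/ml for 24 h with 4 control cultures that did not. All cultures came from mice of the genotype Pkd2fl/fl Pax8rtTA TetOCre mTmG, aged postnatal day 7 to 10 by the labels and day 4 to 7 by the study's methods. All grew with serum and the growth factors HGF, EGF and bFGF, and were harvested on day 7 of culture, which was 6 days past the pulse. The floxed *Pkd2* alleles can be removed only where the *Pax8* promoter drives the inducible Cre and doxycycline is given, and no doxycycline is named for these 8 cultures. Each group consists of numbered cultures, 3, 7, 14 and 21 without GDNF and 6, 12, 17 and 22 with it, and the number of mice behind each culture is not given in the sources used here.

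Retinoic acid is made from vitamin A in steps. Retinol is oxidised to retinaldehyde, retinaldehyde dehydrogenases of the Aldh1a family oxidise it to retinoic acid, and the acid binds nuclear receptors (RAR) that sit on DNA as pairs with retinoid X receptors (RXR). Cyp26 enzymes then hydroxylate it for removal. In the developing kidney, retinoic acid made in the stroma acts to keep *Ret*, the receptor of GDNF, expressed in the ureteric bud, and *Rarb* is a textbook gene that the acid switches on through its own promoter.

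That promoter is shown here because it carries the repeat that RAR and RXR bind. RefSeq promoter windows, 250 bases before to 50 bases after a transcript's start on GRCm38.p6, were found for 7 of the 9 genes, in 14 windows, and not for *Aldh1a3* and *Crabp2*. They were searched on both strands for the receptor half-site AGGTCA, for AGTTCA, for GGGTCA and for GGTTCA, alone or as 2 copies in the same direction with 1, 2 or 5 bases between them. The stretch below is from the minus strand at chr14:16575513-16575726 and ends with the repeat with 5 bases between, which is in capitals.
Rarb promoter: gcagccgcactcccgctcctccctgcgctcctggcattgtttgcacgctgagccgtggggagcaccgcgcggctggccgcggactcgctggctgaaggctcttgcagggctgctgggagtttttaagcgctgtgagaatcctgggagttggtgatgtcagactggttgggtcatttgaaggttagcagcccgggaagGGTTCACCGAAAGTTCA
The repeat lies from 53 to 37 bases before the RefSeq start of *Rarb* at chr14:16575476, and a single half-site GGGTCA begins 83 bases before that start, within the lower-case stretch. This was the only window of *Rarb*. The listed span of the gene runs on to position 17082331, which is upstream on this strand, and no window there was searched. Of all 32851 windows, 0.0974% (32) hold a repeat with 5 bases between, and among the 7 genes with a window *Rarb* was the 1 with it. Repeats with 1 or 2 bases between, found in 0.222% and 0.268% of all windows, were in none of the 14 windows. A half-site alone is common, at 43.7% of all windows, and was present for *Aldh1a1*, *Rara*, *Rarb* and *Rarg*. A match of letters does not show that a receptor binds there.

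The deposited totals were 72991721 to 97490625 counts over transcripts per culture, in which a read that fits several transcripts of a gene is counted for each. All 8 epithelial markers examined, among them *Pax8*, *Cdh16* and *Epcam*, were at 1 TPM (a length-normalised abundance) or more in every culture. Of 11 stromal markers, 10 were too, so the cultures held epithelial and stromal RNA. Of 5 proximal tubule markers, *Lrp2*, *Cubn*, *Slc34a1* and *Slc22a6* stayed below 1 TPM in every culture. The remaining 1, *Slc5a2*, was at 1 TPM or more in every culture. The 5 summed to 3.94 to 8.58 TPM in controls and 9.47 to 12.3 TPM with GDNF. Of 13698 genes averaging 1 TPM or more, 23.4% were likewise higher in every GDNF culture than in every control. The difference of this sum was not tested. Control culture 3 stands apart with a TMM scaling factor of 0.790, against 0.963 to 0.982 in the other controls and 1.07 to 1.11 with GDNF. It had the lowest TPM of the 8 cultures for 54.7% of the 13698 genes that averaged 1 TPM or more. Cultures 3, 7, 6 and 12 had more *Xist* than Y-linked RNA and the other 4 the reverse, 2 of each kind in each group, and cultures 3 and 6 held some of both.

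*Aldh1a2* was the most abundant member. It encodes the retinaldehyde dehydrogenase that makes most of the retinoic acid of the embryo, and lies at chr9:71215789-71296243 (GRCm38, as for all positions here). Its level was 158, 120, 139 and 160 TPM in control cultures 3, 7, 14 and 21 and 132, 157, 154 and 142 TPM in GDNF cultures 6, 12, 17 and 22. The groups overlapped, and the 8 cultures differed little: their coefficient of variation was 9.99%, and 3.66% of those 13698 genes had a smaller one. The means were 144 ± 18.8 TPM in controls and 146 ± 11.5 TPM with GDNF (SD, n = 4 each, exact permutation test, two-sided, p = 0.914). On the scale of counts corrected for library size and composition (CPM, TMM), *Aldh1a2* was at 220 ± 60.3 in controls and 166 ± 12.2 with GDNF (exact permutation test, two-sided, p = 0.0857). Its log2 fold change in the fit across all genes was -0.40 (SE 0.19, 95% interval -0.82 to 0.02, edgeR's quasi-likelihood test, Benjamini-Hochberg adjusted p = 0.239). Control culture 3, at 307 CPM, was far above the other controls at 169 to 209 CPM, and without it the log2 fold change was -0.20 (adjusted p = 0.476). In bulk RNA of this kind, fewer cells of a type and less RNA per cell cannot be told apart.

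*Aldh1a3*, another enzyme of the same step, lies at chr7:66390892-66427477. Its level was 24.9, 34.9, 16.7 and 41.6 TPM in control cultures 3, 7, 14 and 21 and 54.6, 42.7, 22.5 and 53.8 TPM in GDNF cultures 6, 12, 17 and 22. Control 14 and GDNF 17 were the lowest of their groups, and the groups overlapped. The means were 29.5 ± 10.97 TPM in controls and 43.4 ± 14.9 TPM with GDNF (SD, n = 4 each, exact permutation test, two-sided, p = 0.2). The log2 fold change across all genes was 0.17 (SE 0.32, 95% interval -0.54 to 0.88, adjusted p = 0.778). It was -0.04 without control 14 and -0.0027 without GDNF 6, so its direction rested on single cultures.

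*Aldh1a1*, the remaining enzyme, lies at chr19:20492583-20643463. It had 5.53, 2.65, 0.253 and 1.2 TPM in control cultures 3, 7, 14 and 21 and 13.4, 5.46, 0.374 and 1.9 TPM in GDNF cultures 6, 12, 17 and 22. The highest culture exceeded the lowest 53.0-fold, the widest range among the 9 genes, on 30 to 1352 counts. The groups overlapped, with 2.41 ± 2.30 TPM in controls and 5.29 ± 5.82 TPM with GDNF (SD, n = 4 each, exact permutation test, two-sided, p = 0.486), and the log2 fold change of 0.60 had an SE of 1.07 (95% interval -1.78 to 2.99, adjusted p = 0.764). It was -0.51 without GDNF 6 and 1.72 without control 3.

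The values of *Aldh1a1* divided by the kind of culture. The 4 cultures with *Xist* RNA had 2.65 to 13.4 TPM and the 4 with Y-linked RNA had 0.253 to 1.9 TPM, without overlap. Over the 13698 genes of at least 1 TPM on average, 1.72% were higher in the *Xist* cultures without overlap and 3.39% were higher in the others. The kinds were read from the same libraries, so this is a description with no test. Within the *Xist* cultures the GDNF mean was 5.35 TPM above that of controls and within the Y-linked cultures 0.405 TPM above, from 2 cultures a group in each case (exact permutation test within the kinds, two-sided, p = 0.222), and with the kind of culture as a term the log2 fold change was 0.49 (SE 0.61, edgeR's adjusted p = 0.638). The summed level of 6 collecting duct markers divided the cultures in the same way, at 82.0 TPM in GDNF 6, 32.6 in GDNF 12, 29.1 in control 7 and 24.7 in control 3, against 7.56 to 13.8 TPM in the other 4. Of these markers, 1 was at 1 TPM or more in every culture, and the defining marker *Aqp2* was below 1 TPM in all of them. The sum of 4 markers of the loop of Henle and distal tubule also divided them, at 11.8 to 46.8 TPM against 1.76 to 7.2 TPM, with 1 marker at 1 TPM or more in every culture and the defining marker *Slc12a1* below 1 TPM in all. The part of both lists in the *Aldh1a1* values was not tested.

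**Figure D1:**
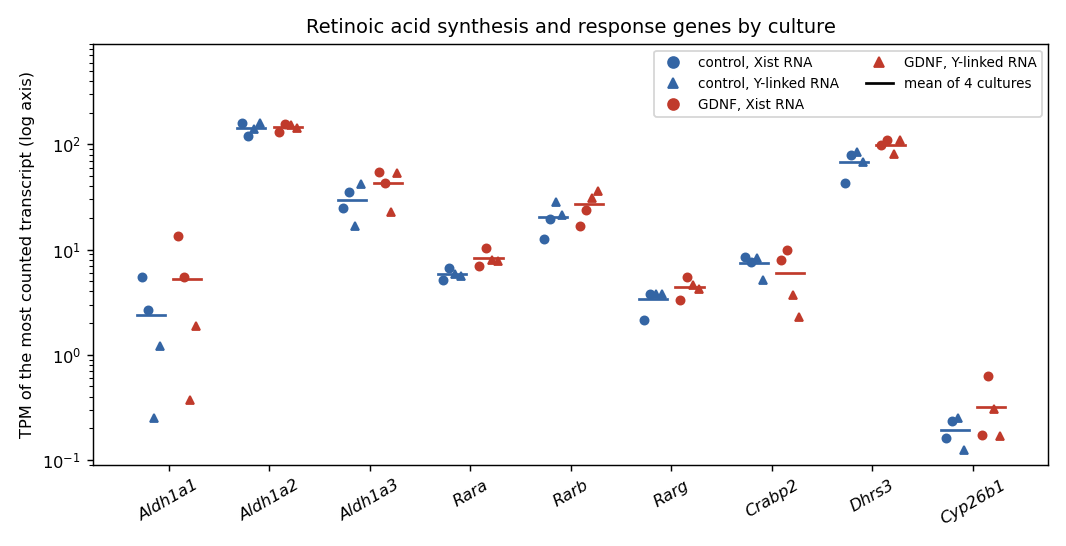
Level of each of the 9 genes in each culture, as TPM of the most counted transcript on a log axis. Blue points are control cultures and red points GDNF cultures, circles have more *Xist* RNA and triangles more Y-linked RNA, and bars are means of 4. *Aldh1a2* is the highest in all cultures with values from 120 to 160 TPM, *Aldh1a1* spreads from 0.253 to 13.4 TPM with circles above triangles, and the colours are apart for *Rara* alone.

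The make-up of the enzyme family can be compared without any scaling between cultures. The 3 enzymes summed to 155 to 206 TPM per culture, and *Aldh1a2* made up 82.0% ± 5.73 of the sum in controls and 75.4% ± 8.89 with GDNF (SD, n = 4 each, exact permutation test, two-sided, p = 0.257). *Aldh1a3* made up 16.7% ± 5.57 and 22% ± 6.88 (exact permutation test, p = 0.286), and *Aldh1a1* 1.34% ± 1.24 and 2.63% ± 2.90 (exact permutation test, p = 0.514). The groups overlapped for all 3 shares. *Aldh1a2* held the largest share in every culture, from 66.0% in GDNF 6 to 89.1% in control 14.

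*Dhrs3* encodes an enzyme that turns retinaldehyde back into retinol, and is known to be induced by retinoic acid. It lies at chr4:144892534-144928209 and was next to *Aldh1a2* in abundance. Its level was 42.7, 79.7, 84.3 and 68.2 TPM in control cultures 3, 7, 14 and 21 and 97.6, 109, 81.1 and 109 TPM in GDNF cultures 6, 12, 17 and 22. GDNF 6, 12 and 22 were above every control, and GDNF 17 was between control 7 and control 14. The means were 68.7 ± 18.6 TPM and 99.4 ± 13.4 TPM (SD, n = 4 each, exact permutation test, two-sided, p = 0.0571). On the CPM scale the groups overlapped more, at 143 ± 23.8 in controls and 160 ± 20.7 with GDNF (exact permutation test, two-sided, n = 4 each, p = 0.2). The log2 fold change was 0.16 (SE 0.16, 95% interval -0.21 to 0.52, adjusted p = 0.588), and it was 0.08 without control 3 and 0.05 without control 21.

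*Crabp2*, a cytoplasmic protein that carries retinoic acid to the receptors, lies at chr3:87948693-87953372. Its level was 8.45, 7.65, 8.38 and 5.17 TPM in control cultures 3, 7, 14 and 21 and 7.97, 9.85, 3.69 and 2.27 TPM in GDNF cultures 6, 12, 17 and 22. GDNF 12 was above every control, GDNF 6 was among them, and GDNF 17 and 22, those with Y-linked RNA, were below all of them. The means were 7.41 ± 1.54 TPM in controls and 5.95 ± 3.56 TPM with GDNF (SD, n = 4 each, exact permutation test, two-sided, p = 0.457). Within the *Xist* cultures the GDNF mean was 0.863 TPM above that of controls, and within the Y-linked cultures the difference was -3.79 TPM, from 2 cultures a group in each case and untested. The log2 fold change was -0.74 (SE 0.48, 95% interval -1.80 to 0.32, adjusted p = 0.375), and -0.93 with the kind of culture as a term in the fit (SE 0.35, edgeR's unadjusted p = 0.0238, adjusted p = 0.161). These values rest on 78 to 471 counts.

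*Rara*, the receptor with the broadest expression in the body, lies at chr11:98927800-98974942. Its level was 5.11, 6.69, 5.85 and 5.58 TPM in control cultures 3, 7, 14 and 21 and 6.96, 10.3, 7.96 and 7.85 TPM in GDNF cultures 6, 12, 17 and 22. Every GDNF culture was above every control culture. The means were 5.81 ± 0.663 TPM and 8.26 ± 1.41 TPM (SD, n = 4 each), and the exact permutation test gave p = 0.0286 (two-sided), the smallest value that 70 assignments allow. This is read against the whole table, in which 23.4% of the 13698 genes were higher in all GDNF cultures than in all controls (0.679% lower), and 24.1% had an exact p of 0.05 or less. TPM carries no correction for composition, and the median log2 ratio of the group means over those genes was 0.40. In CPM the groups of *Rara* overlapped, at 51.8 ± 7.13 in controls and 55.7 ± 8.92 with GDNF (exact permutation test, two-sided, n = 4 each, p = 0.543), and the log2 fold change was 0.10 (SE 0.16, 95% interval -0.25 to 0.46, adjusted p = 0.726). Its direction turned without GDNF 12 (-0.01) and without control 21 (-0.02).

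*Rarb*, the receptor that carries the repeat in the promoter window searched here, lies at chr14:16430839-17082331. Its level was 12.5, 19.6, 28.4 and 21.2 TPM in control cultures 3, 7, 14 and 21 and 16.7, 23.7, 31.1 and 35.9 TPM in GDNF cultures 6, 12, 17 and 22. Control 3 and GDNF 6 were the lowest of their groups, and the groups overlapped, with means of 20.4 ± 6.51 TPM and 26.9 ± 8.44 TPM (SD, n = 4 each, exact permutation test, two-sided, p = 0.314). On the CPM scale the means were alike, 134 ± 27.8 in controls and 133 ± 37.0 with GDNF (exact permutation test, two-sided, n = 4 each, p = 0.943). The log2 fold change was -0.01 (SE 0.23, adjusted p = 0.984), with a 95% interval of -0.51 to 0.49. With 4 cultures a group, these values leave a change of *Rarb* within that interval possible. The interval is not a limit of detection, and none was computed for *Rarb*. The summed level of 11 stromal markers was also lowest in control 3 and GDNF 6, at 398 and 490 TPM, against 872 to 2058 TPM in the other 6 cultures. So was that of 5 podocyte markers, at 12.2 and 21.2 TPM against 34.7 to 96.2 TPM, of which 3 were at 1 TPM or more in every culture and the defining marker *Nphs1* was below 1 TPM in all. The part of both lists in the *Rarb* values was not tested.

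The tables list 4 transcripts of *Rarb*. The one with the most counts, NM_011243, had 1.22 to 1.41 times the count of NM_001289760 and of NM_001289761, and 1.12 to 1.22 times that of NM_001289762. Most of a gene's reads enter the count of several transcripts, so these ratios do not give the use of any promoter. The 4 transcripts of *Rara* differed less, and the chosen one had 0.981 to 1.04 times the count of each of the others.

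*Rarg*, the remaining receptor, lies at chr15:102234938-102257522. Its level was 2.16, 3.79, 3.8 and 3.75 TPM in control cultures 3, 7, 14 and 21 and 3.30, 5.46, 4.58 and 4.18 TPM in GDNF cultures 6, 12, 17 and 22. Control 3 lay alone below the other controls, which were at 3.75 to 3.8 TPM. The means were 3.38 ± 0.813 TPM in controls and 4.38 ± 0.894 TPM with GDNF (SD, n = 4 each, exact permutation test, two-sided, p = 0.2), and 12.6 ± 1.40 against 12.6 ± 2.36 in CPM (exact permutation test, n = 4 each, p = 1). The log2 fold change was 0.01 (SE 0.18, 95% interval -0.40 to 0.42, adjusted p = 0.986).

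Within the receptor family, *Rarb* was the most abundant in all 8 cultures. It made up 68.1% ± 5.04 of the summed TPM of the receptors in controls and 67.1% ± 7.17 with GDNF (SD, n = 4 each, exact permutation test, two-sided, p = 0.8). *Rara* made up 20.4% ± 4.56 and 21.6% ± 5.04 (exact permutation test, p = 0.686), and *Rarg* 11.5% ± 1.22 and 11.3% ± 2.22 (exact permutation test, p = 0.886). By kind of culture the ranges were apart: *Rara* made up 22.3% to 26.1% in the *Xist* cultures and 15.4% to 18.3% in the Y-linked cultures, and *Rarb* 60.1% to 65.1% and 69.4% to 74.9%, neither with overlap. The shares belong to the same sum, so they are not separate observations, and no share over all genes was set beside them. In TPM the kinds overlapped for both genes. *Rara* was at 5.11 to 10.3 TPM in the *Xist* cultures and 5.58 to 7.96 TPM in the Y-linked cultures. *Rarb* was at 12.5 to 23.7 TPM and 21.2 to 35.9 TPM. These ranges by kind are a description, without a test.

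**Figure D2:**
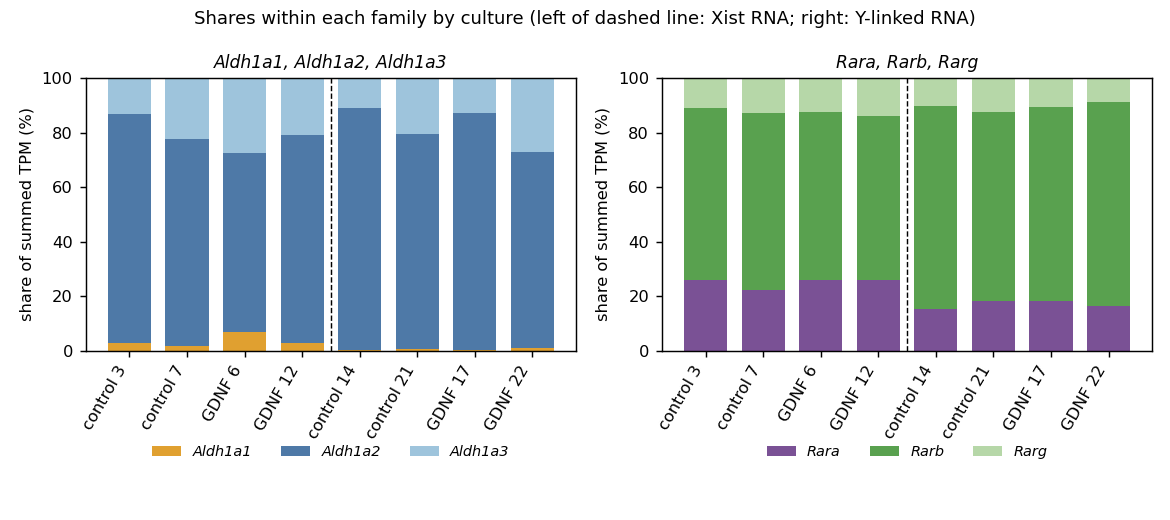
Share of each gene in the summed TPM of its family, in percent, for the Aldh1a enzymes (left panel) and the receptors (right panel). Each bar is 1 culture, with *Xist* cultures left of the dashed line. *Aldh1a2* and *Rarb* form the largest part of every bar, and the *Rara* part is at 22.3% or more left of the line and at 18.3% or less right of it.

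*Cyp26b1*, which hydroxylates retinoic acid and so ends its action, lies at chr6:84571414-84593908 and was the member with the lowest level. It had 0.163, 0.236, 0.249 and 0.126 TPM in control cultures 3, 7, 14 and 21 and 0.174, 0.633, 0.307 and 0.171 TPM in GDNF cultures 6, 12, 17 and 22. GDNF 12 was the highest, and the other 7 cultures were between 0.126 and 0.307 TPM. The means were 0.194 ± 0.0590 TPM and 0.321 ± 0.218 TPM (SD, n = 4 each, exact permutation test, two-sided, p = 0.343), on 29 to 151 counts. The log2 fold change was 0.32 (SE 0.48, 95% interval -0.76 to 1.39, adjusted p = 0.722), and it was -0.24 without GDNF 12.

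All 9 genes passed the filter on low counts, and in edgeR's quasi-likelihood fit none passed an adjusted p of 0.05 (0 of 9, background 0% of 16557 genes). At an unadjusted p of 0.05 it was also 0 of 9, against 22.1% of all genes tested. It was 1 of 9 under 4 alternatives to that fit: *Crabp2* with the kind of culture as a term (background 24%), and *Aldh1a2*, lower with GDNF, with DESeq2 size factors (21.5%), without control 7 (24.5%) and without control 21 (21.2%). DESeq2 called 14.7% of the 9170 genes to which it gave an adjusted p (2.3% higher and 12.4% lower) and 0 of the 5 members among them, the smallest adjusted p being 0.127 for *Aldh1a2*, the 1 member at an unadjusted p of 0.05 (background 23.5%). limma-voom called none of the 9 and none of the 16557 genes, with 22.5% of all genes at an unadjusted p of 0.05. The 9 log2 fold changes had a median of 0.10, beside 0.03 over all genes tested, 6 above 0 and 3 below. At 4 cultures a group the intervals are wide for the members of low count, and in edgeR on simulated counts for this comparison the recovery was 15.5% for genes changed 2-fold and 81.5% for genes changed 4-fold, among 16557 genes.

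**Figure D3:**
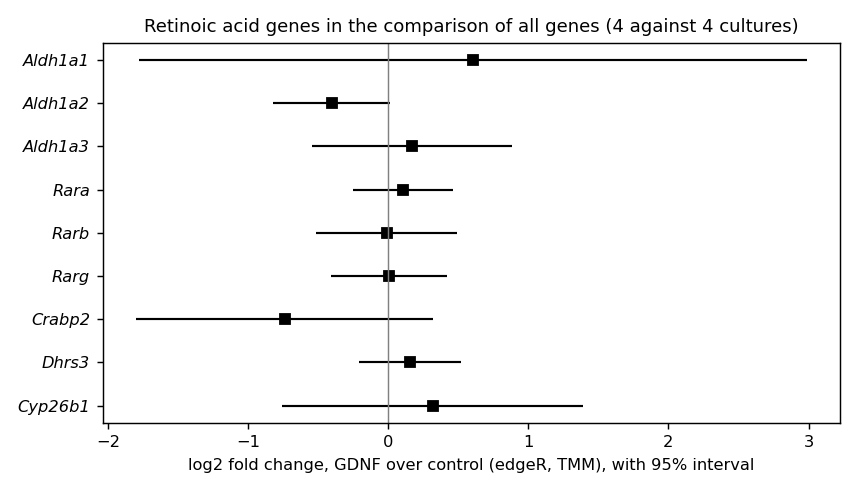
Log2 fold change of each of the 9 genes, GDNF over control (squares, edgeR with TMM scaling, 4 against 4 cultures), with its 95% interval (lines). All 9 intervals include 0, that of *Aldh1a2* only just (-0.82 to 0.02), and those of *Aldh1a1*, *Crabp2* and *Cyp26b1* are the widest.

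The position of the members relative to 0 depended on the scaling between cultures. With library size alone in place of TMM, the median log2 fold change of all genes moved from 0.03 to 0.25, and those of *Rara*, *Dhrs3* and *Aldh1a3* moved to 0.33, 0.36 and 0.39. *Rarb* was at -0.01 with TMM, -0.03 with DESeq2 size factors, 0.01 with upper-quartile factors and 0.20 with library size alone, so its sign changed with the scaling, and *Rarg* turned to -0.01 with DESeq2 size factors. *Aldh1a2* and *Crabp2* stayed below 0 under these 4 scalings, from -0.42 to -0.16 and from -0.75 to -0.49. In TPM, the log2 ratio of the means was 0.02 for *Aldh1a2* and -0.32 for *Crabp2*, under the median of 0.40 over all genes. A higher mean TPM with GDNF was found for 8 of the 9, all but *Crabp2*, against 78.6% of all genes.

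**Figure D4:**
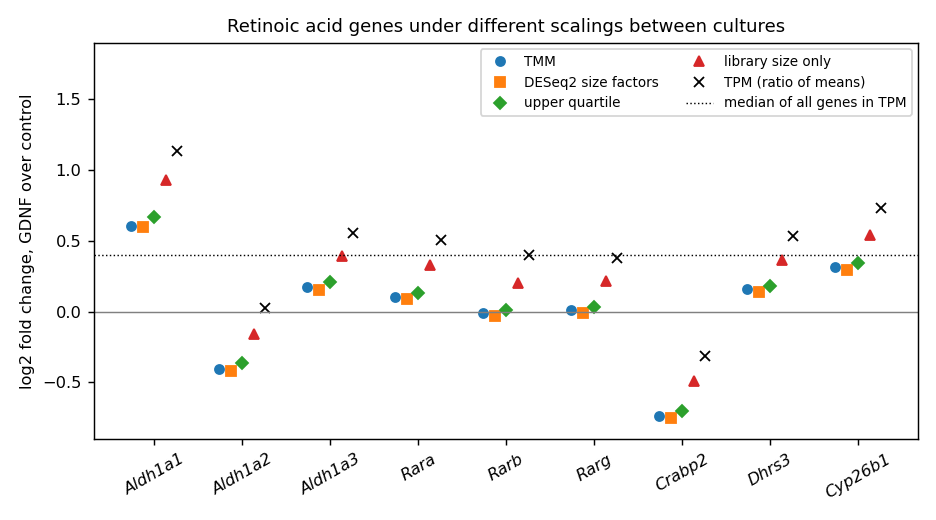
Log2 fold change of each of the 9 genes, GDNF over control, under 4 scalings in edgeR (coloured points) and as the log2 ratio of mean TPM (crosses). The dotted line is the median of 13698 genes in TPM, 0.40. Library size alone and TPM place every gene higher than TMM does, *Aldh1a2* and *Crabp2* are the lowest of the 9 throughout, and *Rarb* and *Rarg* lie near 0 under TMM.

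Per length, the order of the levels was largely shared by the cultures. *Aldh1a2* (mean 145 TPM over 8 cultures) exceeded *Dhrs3* (84.0 TPM) in 8 of 8 cultures, and their ranges were apart. *Dhrs3* exceeded *Aldh1a3* (36.5 TPM) in 8 of 8, and *Rarb* (23.6 TPM) exceeded *Rara* (7.03 TPM) in 8 of 8, with ranges apart. Neighbours in that order whose ranges overlapped and whose order changed between cultures were *Aldh1a3* and *Rarb* (6 of 8), *Rara* and *Crabp2* (6.68 TPM, 4 of 8), *Crabp2* and *Rarg* (3.88 TPM, 6 of 8) and *Rarg* and *Aldh1a1* (3.85 TPM, 5 of 8). *Cyp26b1*, at 0.257 TPM, was below *Aldh1a1* in 8 of 8.

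Across the 8 cultures, in log2 CPM with TMM scaling, *Aldh1a1* went with *Aldh1a3* (Pearson r = 0.82) and against *Rarb* (r = -0.85), and *Rara* went with *Cyp26b1* (r = 0.87). These are the strongest of 36 pairs among the members, given as a description, since the points share their libraries and scaling and include both kinds of culture. Among 11461 genes averaging 5 CPM or more, *Asns* (r = 0.98) and *Akt1s1* (r = 0.97) had the pattern most like that of *Aldh1a2*. For *Aldh1a3* these were *Afap1l1* and *Lin7a* (both r = 0.98), for *Rarb* *Gm14403* and *Stk17b* (both r = 0.98), and for *Rarg* *Pdgfa* and *Npr3* (r = 0.94 and 0.93). For *Rara* they were *Mknk2* and *B930041F14Rik* (r = 0.95 and 0.90), and for *Dhrs3* *1110054M08Rik* and *Zfp810* (r = 0.92 and 0.91). All were picked as the highest among 11461 genes over 8 cultures, where such values can arise with no relation, and none was tested. By rank (Spearman) these pairs ran from 0.69 for *Rara* with *B930041F14Rik* to 0.98 for *Rarb* with *Gm14403* and with *Stk17b*.

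Around the 9 genes, 64 other genes of the retinoid pathway were listed in 6 groups by role, and 48 of them had enough counts for the test. None passed the adjusted p of 0.05 by edgeR's quasi-likelihood test or by limma-voom. DESeq2 gave an adjusted p to 30 of them and called 3, all lower with GDNF, *Fabp5* and *Rdh11* among them. Of all 9170 genes with an adjusted p, it called 12.4% lower and 2.3% higher. At an unadjusted p of 0.05 by edgeR, 6 of the 48 were higher with GDNF, against 9.25% of all genes, and 10 were lower, against 12.9%.

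The 6 that were higher all belong to the receptor partners and cofactors, of which 9 were tested, with a median log2 fold change of 0.38 against 0.03 over all genes. All 9 were above 0 under each of the 18 alternatives run, while 8691 of all 16557 genes were above 0 in the main fit. The number at an unadjusted p of 0.05 was 3 without control 3 and 2 to 5 over the cultures left out in turn. Over all genes, those higher at that p were 1531 of 16557 in the main fit and 985 of 16802 without control 3. With cultures left out in turn they ran from 871 of 16772 (GDNF 22) to 1713 of 16772 (control 7). *Nrip1*, a corepressor that binds ligand-bound nuclear receptors, was at 19.6, 61.8, 44.6 and 63.4 TPM in control cultures 3, 7, 14 and 21 and 75.6, 95.2, 88.3 and 127 TPM in GDNF cultures 6, 12, 17 and 22 (log2 fold change 0.68, SE 0.25, adjusted p = 0.180). *Rxra*, a partner of RAR on DNA, had 3.73 to 5.16 TPM and 7.13 to 8.24 TPM (log2 fold change 0.30, SE 0.12, adjusted p = 0.195), and *Rxrb*, another partner, 14.5 to 21.3 TPM and 24.4 to 28.6 TPM (log2 fold change 0.21, SE 0.13, adjusted p = 0.358). In CPM the groups stayed apart for *Nrip1* and *Rxra*, as for 6.99% of all genes in that direction, and overlapped for *Rxrb*. *Rxrg* was listed at 0 TPM in 6 of 8 cultures and had at most 7 counts in its most counted transcript.

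Among uptake and storage genes, 3 of 8 tested were lower at an unadjusted p of 0.05, and 1 was without GDNF 6, without control 14, or without control 3 and GDNF 6 together. Of all genes, 2134 of 16557 were lower in the main fit, 2195 of 16777 without GDNF 6 and 2181 of 16754 without control 14. Without control 3 and GDNF 6 together it was 1738 of 16652. *Lpl*, the lipoprotein lipase, had 12.2 to 37.2 TPM in controls and 10.7 to 30.1 TPM with GDNF, so the groups overlapped (log2 fold change -0.73, SE 0.30, adjusted p = 0.203). Among 14 tested genes that convert retinol and retinaldehyde, 4 were lower, and 1 was without control 3, without GDNF 12 or with library size alone, and 2 without GDNF 17 or GDNF 22. Genes lower in the whole table were 1374 of 16802 without control 3, 1397 of 16734 without GDNF 12 and 850 of 16557 with library size alone. They were 1705 of 16749 without GDNF 17 and 1321 of 16772 without GDNF 22. *Rdh10*, the main retinol dehydrogenase of the embryo, had 46.4 to 66.3 TPM in controls and 46.0 to 64.9 TPM with GDNF (log2 fold change -0.39, SE 0.17, adjusted p = 0.217). *Rdh11*, a retinaldehyde reductase, had 20.7, 13.7, 18.1 and 24.5 TPM in control cultures 3, 7, 14 and 21 and 13.8, 14.1, 14.2 and 11.7 TPM in GDNF cultures 6, 12, 17 and 22 (log2 fold change -0.93, SE 0.23, adjusted p = 0.167 by edgeR and 0.0183 by DESeq2). *Rdh14*, a related enzyme, had 25.0 to 28.1 TPM and 23.4 to 28.0 TPM (log2 fold change -0.42, SE 0.16, adjusted p = 0.192).

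Among the other carriers and clearance enzymes, *Fabp5*, which carries retinoic acid to the receptor PPARD, was at 82.2, 97.5, 117 and 89.1 TPM in control cultures 3, 7, 14 and 21 and 60.3, 80.5, 93.8 and 59.8 TPM in GDNF cultures 6, 12, 17 and 22. Its log2 fold change was -0.79 (SE 0.19, adjusted p = 0.167 by edgeR and 0.0183 by DESeq2), and the groups overlapped in TPM but not in CPM, where 6.26% of all genes were lower without overlap. *Crabp1*, the carrier related to *Crabp2*, was at 30.3 TPM in control 14 and 23.7 TPM in GDNF 17 and between 0.696 and 5.23 TPM elsewhere (log2 fold change -0.74, SE 1.14, adjusted p = 0.726). *Cyp26a1*, the enzyme related to *Cyp26b1*, had 1.27 to 2.30 TPM in controls and 1.40 to 7.94 TPM with GDNF, the highest in GDNF 6 (log2 fold change 0.61, SE 0.56, adjusted p = 0.532). *Cyp26c1* had at most 30 counts, in GDNF 6, and was not tested.

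Of 13 tested genes known to respond to retinoic acid in other settings, none was higher and 2 were lower at an unadjusted p of 0.05 (median log2 fold change 0.08). The 2 became 0 without GDNF 12, without GDNF 22, without control 3, without control 3 and GDNF 6 together, in limma-voom and with library size alone, and 1 without GDNF 6, control 7 or control 14, while 1 gene was higher with the kind of culture as a term and without control 14. The whole table also changed, from 2134 genes lower in the main fit to 1397 without GDNF 12, 1321 without GDNF 22 and 1374 without control 3. It had 1738 without control 3 and GDNF 6 together, 2081 in limma-voom and 850 with library size alone. It had 2195 without GDNF 6, 2391 without control 7 and 2181 without control 14. Genes higher were 1531 in the main fit, 1715 with the kind of culture as a term and 1429 without control 14. *Ret*, the receptor of GDNF, had 0.695, 0.919, 0.572 and 1.78 TPM in control cultures 3, 7, 14 and 21 and 2.27, 1.94, 1.03 and 1.58 TPM in GDNF cultures 6, 12, 17 and 22. Control 21 lay among the GDNF cultures, and the log2 fold change was 0.42 (SE 0.35, adjusted p = 0.483). The 1 tested gene of the other retinaldehyde oxidases was *Cyp1b1*, with a log2 fold change of 0.61 (SE 0.46, adjusted p = 0.442).

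Transcript length differed between the genes of each direction. Of all genes at an unadjusted p of 0.05, those higher with GDNF had a median transcript length of 4321 bases and those lower of 1552.5 bases, against 2674 bases over all genes tested. The 9 receptor partners and cofactors had a median of 7329 bases, the 14 genes that convert retinol and retinaldehyde 1639 bases, and the 3 other carriers and clearance enzymes 953 bases. The 8 uptake and storage genes, at 2852.5 bases, and the 13 known targets, at 2843 bases, were above the median of all genes, with 3 and 2 of them lower with GDNF and none higher, and *Lpl*, one of the lower, has 4049 bases. The 9 members had a median of 2958 bases, from 900 for *Crabp2* to 4751 for *Cyp26b1*. The part of length in these values was not tested.

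**Figure D5:**
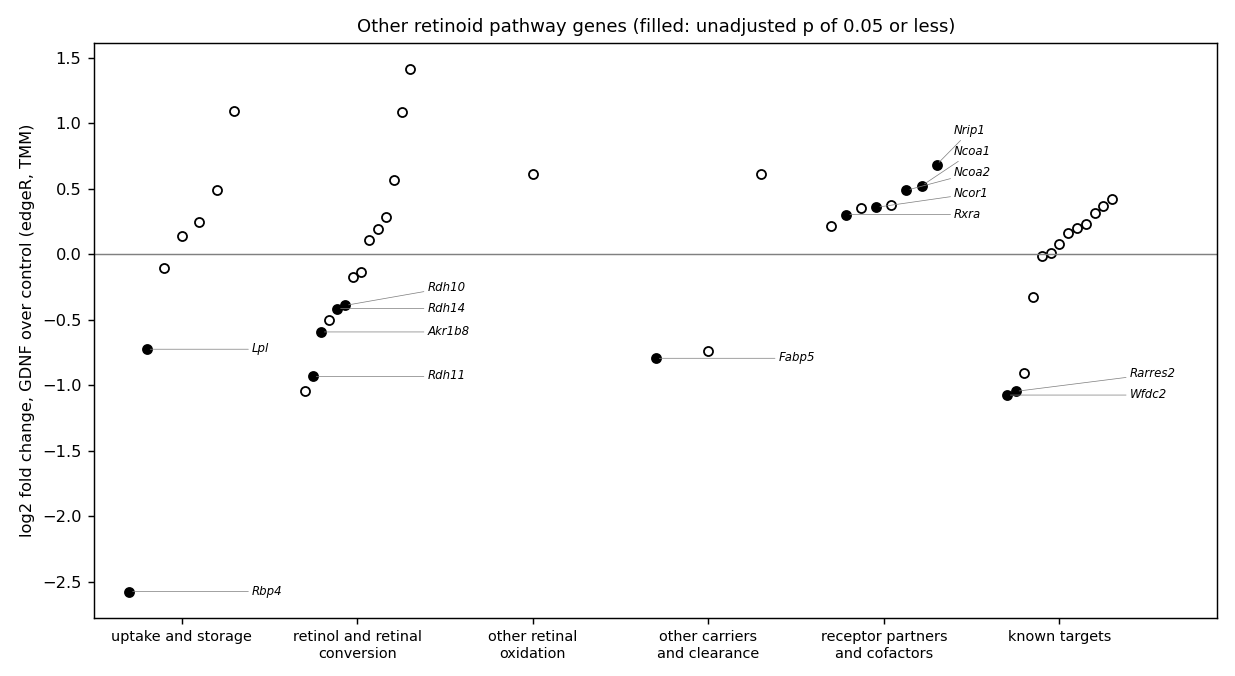
Log2 fold change of 46 of the 48 tested genes of 6 retinoid groups, GDNF over control (edgeR, TMM scaling), each point 1 gene ordered by its value. Filled points are at an unadjusted p of 0.05 or less and are named. The 8 receptor partners and cofactors drawn all lie above 0, and the filled points of the other groups lie below 0.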

How the data were processed

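RNA-Seq of 8 tubuloid cultures was analysed, 4 with a GDNF pulse and 4 controls, grouped by the titles and treatment labels. Poly-A selected SMART-Seq v4 libraries, a kit that does not mark strand, were read as 75 bp pairs on 2 flow cell lanes of 4 samples each. The lane of each culture is not given in the sources used here. Per the labels and methods, the authors mapped reads with STAR to mm10 (GRCm38), and featureCounts and DESeq2 are named in the submitters' processing notes, without versions. The counts the authors deposited are whole, not normalized, and given for 33068 RefSeq transcripts. The deposited FPKM values divide them by transcript length and total, and were used for lengths only (whole to within 0.01 bases for 100% of values). The deposited TPM values sum over all listed transcripts.

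Members and pathway lists were chosen with earlier results of these data known. Counts were summed per symbol, and 16557 genes passed edgeR's filterByExpr and were tested in edgeR 4.0.16 (R 4.3.3, TMM, glmQLFit and glmQLFTest, Benjamini-Hochberg adjustment over all genes, threshold 0.05). The SE is the log2 fold change over the square root of F, and intervals use edgeR's degrees of freedom. Levels are the TPM of each gene's most counted transcript (by its mean), compared by exact two-sided permutation tests of means over 70 assignments (smallest p 0.0286), for 9 genes and 6 family shares. The p-values set differences between the groups against the spread between cultures, which may be in part technical. The number of mice is not given, so they do not speak to variation between mice. Named genes are the 9 members, 10 pathway genes set by name, the 6 pathway genes with the smallest unadjusted p at 1 CPM or more, and for members of at least 5 CPM the 2 genes most alike by Pearson r (log2 CPM, prior count 1). *Cyp1b1*, *Lpl*, *Rbp4*, *Akr1b8*, *Ncor1*, *Ncoa1*, *Ncoa2*, *Rarres2* and *Wfdc2* are named beyond this rule, after their values were seen. The values of 2 pathway genes that the rule names are not reported here, though both count in their lists. Alternatives were limma-voom (limma 3.58.1) with quality weights, DESeq2 1.42.0, other scalings and filters, 1 transcript per gene, the kind of culture as a term, CPM or log2 in place of TPM, and each culture left out. Leaving out control 3 and GDNF 6 together was added after seeing the data. Counting error is small beside the spread between cultures, except for genes of few counts. edgeR, DESeq2 and limma-voom were also run on simulated counts in which 200 genes had changed, drawn with edgeR's own estimates of each gene's spread. Coordinates and promoter sequences are RefSeq's on GRCm38. Protein sequences and identities were not used here. Python 3.11.15, SciPy 1.17.1 and matplotlib 3.10.9 were used.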

Additional observations from a re-analysis of the deposited data

Results flagged for a closer look

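Of 58 groups of 4 cultures examined (the 9 members and the other named pathway genes in TPM, and the 6 family shares), 6 held a culture set apart from the other 3 by the gap to its nearest neighbour. For independent normal values, chance alone gives about 1 in 20. The groups reuse the same cultures and the shares of a family are linked, so that rate is only a rough guide here. Among the members this was *Rarg*, at 2.16 TPM in control culture 3 against 3.75 to 3.8 TPM in the other controls. *Crabp1* was set apart in both groups, at 30.3 TPM in control 14 and at 23.7 TPM in GDNF 17. *Rxra* was at 8.24 TPM in GDNF 17 against 7.13 to 7.27 TPM in the other GDNF cultures. *Rxrg* was at 0.0832 TPM in GDNF 12, on 7 counts, and at 0.0246 TPM in control 21, on 2 counts, and listed at 0 in the other 6 cultures. With the rest of its group at 0, any value above 0 is set apart by this rule.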

How the results depend on the processing

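No member passed the adjusted p under any of the 18 alternatives to the fit. Across all genes DESeq2 called 1346 where edgeR and limma-voom called 0, and it called 3 of the 30 other pathway genes with an adjusted p. In the self-test, false calls among its calls were 34.2% at 2-fold and 23.1% at 4-fold. Those of edgeR were 11.4% and 6.32%, and those of limma-voom 10.3% and 8.99%, all above 5%. Counts were simulated a single time for each fold, and edgeR and limma-voom recovered few genes at 2-fold. These shares therefore do not settle whether edgeR or limma-voom exceeds 5%. At 2-fold DESeq2 recovered 51% of the changed genes, edgeR 15.5% and limma-voom 13%. With library size alone, genes at an unadjusted p of 0.05 were 3299 higher and 850 lower in place of 1531 and 2134. With each culture left out, the count of genes called stayed at 0 for all genes, members and other pathway genes. Log2 fold changes changed sign in 21 cases and kept it in 141. For *Rarb* these were 0.048 (limma-voom), 0.012 (upper-quartile factors), 0.20 (library size alone), 0.0036 (mean of at least 1 CPM), 0.014 (1 transcript per gene) and 0.076 (without control 3 and GDNF 6), and for *Rarg* -0.013 with DESeq2 and with its size factors in edgeR. With cultures left out in turn they ran from -0.51 to 1.72 (*Aldh1a1*), -0.037 to 0.39 (*Aldh1a3*), -0.017 to 0.17 (*Rara*), -0.15 to 0.15 (*Rarb*), -0.11 to 0.10 (*Rarg*) and -0.24 to 0.54 (*Cyp26b1*). Differences of means in CPM in place of TPM were -53.8 for *Aldh1a2* and -1.01 for *Rarb*, and leaving out cultures put that of *Aldh1a2* between -5.65 and 7.62 TPM. In CPM 0 members had an exact permutation p of 0.05 or less, in place of 1 (*Rara*). *Rara*'s exact permutation p was 0.0571 with each culture left out and 0.0556 within kinds of culture, in each case the smallest that such a test allows. Family shares, in percentage points of GDNF minus control, ran with cultures left out from -0.069 to 2.09 (*Aldh1a1*), -10.5 to -3.50 (*Aldh1a2*), 3.35 to 8.41 (*Aldh1a3*), -0.51 to 2.96 (*Rara*), -3.66 to 1.28 (*Rarb*) and -0.97 to 0.75 (*Rarg*), and that of *Rarg* was 0.0086 with TPM summed over transcripts. The cause of these changes was not tested. No paired analysis was made, because the groups share no culture numbers and no shared mouse is named. Whether cultures of both groups came from the same mice is not given in the sources used here, and unpaired tests would not use it. Counts of 29 to 151 limit *Cyp26b1*, and 30 to 1352 limit *Aldh1a1*.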
